A study of Mus musculus with 28 samples.

Results

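Replication-dependent histone genes encode the bulk of the core histones H2A, H2B, H3 and H4, around which DNA is wrapped in nucleosomes, and the linker histone H1, which sits on the DNA between them. In mouse they lie in clusters, and they were taken here as the genes whose GENCODE M21 symbol starts with Hist1h, Hist2h, Hist3h or Hist4h. By this rule 68 of the 45513 genes in each count table were members: 6 H1, 20 H2A, 17 H2B, 12 H3 and 13 H4 genes. Of these, 54 lie on chromosome 13, 10 on chromosome 3, 3 on chromosome 11 and 1 on chromosome 6, and 65 are annotated as protein-coding. The remaining 3 are pseudogenes (Hist1h2al, Hist1h2aj and Hist3h2bb-ps).

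Most of these genes make mRNAs that end without a poly(A) tail, unlike nearly all other mRNAs of animal cells. Their 3′ end is made by a cut just downstream of a short stem-loop, which is bound by the stem-loop binding protein SLBP, and the transcripts accumulate in S phase, when new DNA needs histones, and are degraded when DNA synthesis stops. Some members also have transcripts that are polyadenylated, a form described mainly in cells that have left the cell cycle.

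The study sequenced ribosome footprints, the mRNA fragments that ribosomes shield from RNase, and poly(A)-selected total mRNA from each of 14 cultures, which gave 28 libraries. Only the total mRNA was chosen by its poly(A) tail, so the library types differ in the selection as well as in what was measured. MN1 cells, a clonal hybrid of mouse spinal motor neurons and neuroblastoma cells, were used at passage 10 to 12 and received plasmids for GFP, for wild-type human TDP-43 (hTDP-43) or for its A315T mutant (hTDP-43 A315T) by transient transfection, in 2 cultures per plasmid. Primary cortical neurons were prepared from mouse embryos at embryonic day 16, received 0.5 µM of the cytostatic agent Ara-C at day 4 in vitro (DIV) and were harvested at DIV 14. These neurons came from hemizygous mice that carry human TDP-43 (3 cultures) or its A315T mutant (3 cultures) under the prion promoter, or from non-transgenic littermates (WT, 2 cultures). MN1 cells were exposed to cycloheximide at 100 µg/ml for 3 min before lysis and neurons were not, so cell type and drug treatment cannot be told apart in any comparison of the cell types. All MN1 cultures share 1 line, so p-values measure only the spread between cultures.

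The cultures carried the markers of their labels, in part. Summed over 9 genes of dividing cells (such as Mki67 and Top2a), MN1 footprints held 1606 to 2148 counts per 1000000 assigned reads (CPM) and neuron footprints 2.88 to 10.3 CPM. For 10 neuron genes the order was turned, since MN1 footprints summed to 766 to 878 CPM while neuron footprints reached 8252 to 10031 CPM, and the cortical marker Neurod6 was at 0 in MN1 cells. Only 2 of 8 motor neuron genes had enough reads to be tested in MN1 cells. Neuron footprints also held 245 to 471 CPM of 7 astrocyte genes, 26.9 to 62.5 CPM of 7 oligodendrocyte lineage genes and 0 to 3.48 CPM of 6 microglia genes. Of the astrocyte genes Slc1a2 alone had 175.5 to 291.3 CPM, while Gfap and S100b had medians of 1.83 and 0.989 CPM. The part of these cells in the histone reads was not tested. Libraries held 332370 to 1219222 assigned reads in MN1 footprints, 1328528 to 2988339 in MN1 total mRNA, 166064 to 2528820 in neuron footprints and 600385 to 6969578 in neuron total mRNA. A level of 3 reads, taken as the floor of detection, corresponded to 2.46 to 9.03, 1.00 to 2.26, 1.19 to 18.1 and 0.430 to 5.00 CPM in these sets. The neuron total mRNA library of WT replicate 3 had the highest share of reads on Lars2, 18.8%, followed by hTDP-43 replicate 3 with 14.2%. The other neuron total mRNA libraries held 3.09% to 7.485%. Some results that the WT replicate 3 library moves are also given without that culture (both of its libraries).

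The stem-loop was searched in GRCm38 on the sense strand only, as GG, then any 2 bases, then CTT, then any base, then T, then any base, then AG, then any base and then GCC, within 150 bases after the stop codon. The stop codon was that of the longest annotated coding sequence of each gene. The stem-loop was found in 58 of the 65 protein-coding members (89.2%) and in 61 of 21323 protein-coding genes in all (0.286%). It began 22 to 59 bases after the stop codon, with a median of 32. The sequences of 8 members are shown because their values recur in the results, with 5 bases on each side of the matched letters, which are in capitals; RefSeq's assembly of GRCm38 was the source and all are read 5′ to 3′ on the strand of the gene.
Hist1h1b (chr13:21779832-21779857, minus strand): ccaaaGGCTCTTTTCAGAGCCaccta
Hist1h1c (chr13:23739507-23739532, plus strand): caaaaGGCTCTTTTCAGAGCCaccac
Hist1h2bb (chr13:23747198-23747223, plus strand): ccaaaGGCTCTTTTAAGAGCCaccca
Hist3h2a (chr11:58955167-58955192, plus strand): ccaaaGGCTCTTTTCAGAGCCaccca
Hist3h2ba (chr11:58949344-58949369, plus strand): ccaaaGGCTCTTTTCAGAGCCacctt
Hist1h4d (chr13:23581945-23581970, plus strand): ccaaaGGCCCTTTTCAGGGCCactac
Hist2h4 (chr3:96262934-96262959, minus strand): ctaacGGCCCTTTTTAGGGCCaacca
Hist4h4 (chr6:136803993-136804018, minus strand): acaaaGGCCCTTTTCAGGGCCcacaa

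The stem set the H4 members apart from the other 4 classes, which shared theirs. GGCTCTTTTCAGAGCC was present in 36 members and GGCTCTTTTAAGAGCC in 9, none of them H4 genes. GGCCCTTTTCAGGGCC was present in 8 and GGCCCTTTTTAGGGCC in 2, all of them H4 genes. A poly(A) signal (AATAAA or ATTAAA in the last 50 bases of an annotated transcript) was found for 17 of the 68 members (25%), against 17502 of 21488 genes (81.5%). Both features were annotated for 12 members, among them Hist1h1c, Hist2h4, Hist3h2a, Hist3h2ba and Hist4h4, and 46 had the stem-loop alone. For 5 members a signal was found and a stem-loop was not (Hist1h2bp, Hist1h2bq, Hist1h2br, Hist1h4j and Hist2h2be). For Hist1h2bp, Hist1h2bq and Hist1h2br the longest coding sequence (417, 405 and 405 bases) exceeds the 381 bases of Hist1h2bb. Stop codons of their other transcripts were not searched, so a stem-loop there would have been missed.

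Histone reads made up far more of the footprints than of the total mRNA, and far more in MN1 cells than in neurons. In MN1 cells 1.42% to 1.85% of footprint reads fell on members (1.64% ± 0.193, SD, n = 6), against 0.0633% to 0.100% of total mRNA reads (0.0837% ± 0.0150, n = 6). In neurons the shares were 0.0758% to 0.124% of footprints (0.0984% ± 0.0171, n = 8) and 0.0122% to 0.0230% of total mRNA (0.0163% ± 0.00318, n = 8). The 4 ranges did not overlap except for MN1 total mRNA and neuron footprints. Within a culture, the footprint share was 18.4 to 23.3 times the total mRNA share in MN1 cells (median 19.1) and 5.16 to 6.99 times in neurons (median 6.00), so every MN1 culture lay above every neuron culture.

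**Figure D1:**
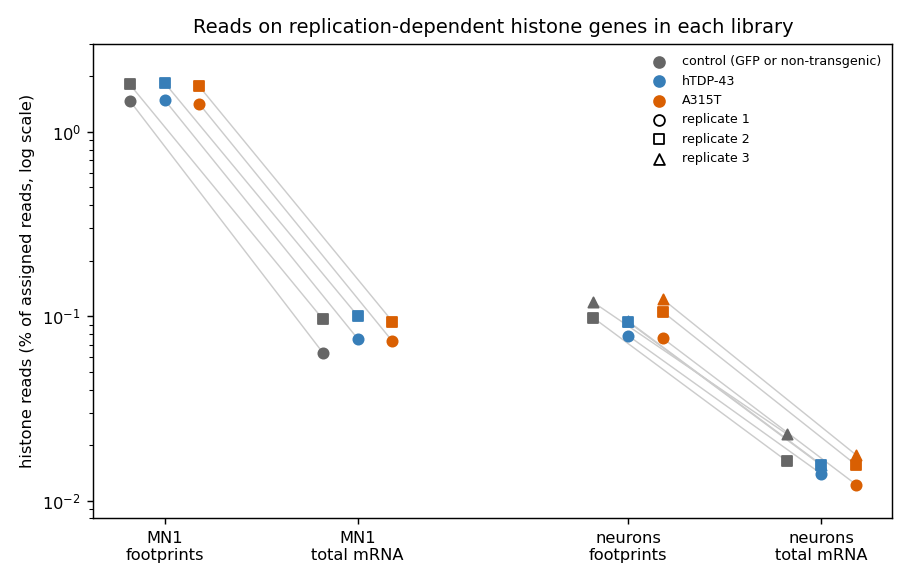
Reads on replication-dependent histone genes as a percentage of all assigned reads (log axis), with 1 point per library for footprints and total mRNA of the 6 MN1 and the 8 neuron cultures. MN1 footprints lie between 1.42% and 1.85%, above all other libraries, and neuron total mRNA lies lowest.

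The MN1 shares differed by culture date. Replicate 1 held 1.42% to 1.49% in footprints and 0.0633% to 0.0755% in total mRNA, and replicate 2 held 1.77% to 1.85% and 0.0935% to 0.100%. Footprints exceeded total mRNA on both dates. In neuron total mRNA the highest share, 0.0230%, was that of WT replicate 3.

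The classes took unequal parts of the histone reads. Of the member reads in MN1 footprints 37.5% fell on H4 genes and 31.7% on H1 genes, while in neuron footprints these parts were 53.6% and 20.4%. H2A genes, the most numerous class, held 7.71% (MN1 cells) and 5.32% (neurons). In the total mRNA the H2A part was larger, at 18.1% in MN1 cells and 12.5% in neurons. By class, the median ratio of footprint to total mRNA share in MN1 cultures was 25.2 for H4, 23.5 for H3, 21.6 for H1, 16.2 for H2B and 8.57 for H2A. In neurons it was 12.0 for H4, 10.1 for H3, 5.02 for H1, 3.13 for H2B and 2.58 for H2A. This order of class sums was the same in both cell types, but single genes weigh on the sums. In neuron total mRNA Hist3h2a held 375 reads and the next H2A gene, Hist1h2ac, held 30. With each member fitted on its own and no filter on low counts, the neuron order differed. The median log2 differences were then 3.398 for H3, 3.064 for H4, 3.062 for H1, 2.572 for H2A and 1.824 for H2B. In MN1 cells such fits left H2A lowest, at 3.433. Only uniquely mapped reads were counted, and the classes differ in how much of their sequence is unique in the genome. The median unique share of the coding sequence was 82.9% for H1, 20.7% for H4 and 11.2% for H2A genes. Over exons it was 92.0%, 51.6% and 15.3%. The part of this in the class shares and ratios was not tested.

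In MN1 cells the members stood higher in footprints than in poly(A)-selected total mRNA, across every class. All 47 members that passed the filter on low counts were called higher in footprints (edgeR's quasi-likelihood test, Benjamini-Hochberg adjusted p below 0.05), while 29.6% of the 9421 genes tested were called higher. The other 21 members had too few reads. Without the filter 63 members could be fitted, of which 53 were called higher, 10 were not called and none was called lower, against 10.3% of all genes called higher. Every footprint library exceeded every total mRNA library in CPM for 50 of these 63 members, against 4.29% of all genes. Among the 59 members with reads in both library types the median ratio of mean CPM was 19.2, and among 17550 such genes it was 0.896.

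**Figure D2:**
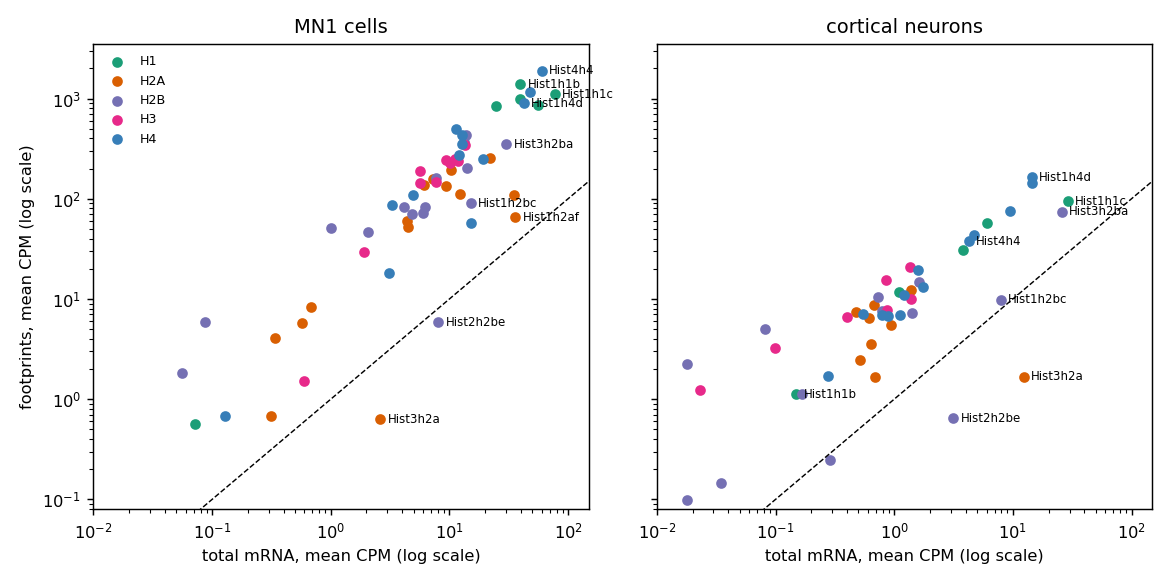
Mean footprint CPM against mean total mRNA CPM of each member (log axes), coloured by histone class, for MN1 cells (59 members) and neurons (48 members); members at 0 in either library type are not drawn, and the line marks equal CPM. Most points lie above the line in both panels, and Hist3h2a lies below it.

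Linker histone genes were among the highest. Hist1h1b, which encodes H1.5, had 1207 to 1532 CPM in MN1 footprints (median 1439), while its total mRNA held 28.7 to 53.4 CPM (median 38.2). The difference was 5.34 on the log2 scale (SE 0.13, adjusted p = 5.82e-15), 40.6-fold. Hist1h1a, which encodes H1.1, reached 799 to 915 CPM in footprints and 18.5 to 28.8 CPM in total mRNA, 5.29 on the log2 scale (SE 0.11). Hist1h1d, for H1.3, showed 777 to 1203 CPM and 28 to 48.1 CPM, a log2 difference of 4.87 (SE 0.15). No footprint library overlapped a total mRNA library for any of these 3 genes. Hist1h1c, which encodes H1.2 and carries both end features, had 929 to 1297 CPM in footprints and 55.8 to 95.7 CPM in total mRNA, where it was the highest member by reads. Its log2 difference of 4.03 (SE 0.16, adjusted p = 1.60e-12) was the lowest of the 5 H1 genes tested.

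Among the genes of histone H4, which encode one identical protein from many copies, Hist4h4 on chromosome 6 held more MN1 footprint reads than any other member (it was named after its values were seen). Its footprint levels were 1827 to 2108 CPM (median 1851), and its total mRNA levels 43.1 to 84.3 CPM (median 56.8), a log2 difference of 5.21 (SE 0.14, adjusted p = 7.42e-15). Per kilobase of annotated exon, Hist1h4d led the footprints with a mean of 2274 CPM per kb, since the Hist4h4 model spans 2879 exonic bases of which 312 are coding. Hist1h4d ranged from 757 to 1046 CPM in footprints and from 31.1 to 52.3 CPM in total mRNA, 4.61 on the log2 scale (SE 0.13). The largest difference of any member tested was that of Hist1h4f, with 437 to 596 CPM against 8.72 to 15.9 CPM, 5.63 on the log2 scale (SE 0.13, adjusted p = 3.35e-15). Among the H4 genes Hist1h4c came next, with 319 to 533 CPM against 6.84 to 18.8 CPM, a log2 difference of 5.30 (SE 0.16). Of the 13 H4 members, 11 were tested and all 11 were higher in footprints. Without the filter on low counts 12 of the 13 were called higher, against 10.3% of all genes.

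H3 and H2B genes were higher in footprints too. All 9 H3 genes tested were called, with log2 differences from 4.22 to 5.26. Without the filter 9 of 10 fitted H3 genes were called higher, against 10.3% of all genes. Hist1h3a had 265 to 423 CPM in footprints and 6.84 to 19.9 CPM in total mRNA (4.86, SE 0.19). Hist1h3i showed 180 to 313 CPM and 3.42 to 13.6 CPM (4.93, SE 0.21). Hist1h3g, whose stem-loop has letters of its own (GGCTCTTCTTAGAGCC), did not stand apart, with 171 to 371 CPM and 6.84 to 15.1 CPM (4.68, SE 0.20). All 12 H2B genes tested were higher, from 2.79 to 5.55 on the log2 scale. Without the filter 14 of 16 fitted H2B genes were called higher, and the lowest value was −0.37. Hist1h2bb ranged from 290 to 605 CPM in footprints and from 8.03 to 20.2 CPM in total mRNA (5.17, SE 0.24). Hist1h2bj had 302 to 469 CPM and 10.9 to 16.7 CPM (4.96, SE 0.13). Hist1h2bf was far lower in both, with 31.7 to 75.2 CPM and 0 to 2.15 CPM, but had the highest H2B difference (5.55, SE 0.35), which rests on 13 total mRNA reads. Hist3h2ba, which has both a stem-loop and a poly(A) signal, had 291 to 454 CPM in footprints and 19.8 to 36.9 CPM in total mRNA (3.75, SE 0.13). Hist1h2bc had the smallest H2B difference, 2.79 (SE 0.16), from 63.2 to 113 CPM in footprints and 12.0 to 18.8 CPM in total mRNA.

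The H2A genes had the smallest differences. All 10 tested were higher in footprints, from 1.03 to 4.68 on the log2 scale with a median of 3.77. Without the filter 13 of 18 fitted H2A genes were called higher and 5 were not called, against 10.3% of all genes called higher. The lowest value was then −1.60. Hist1h2ab ranged from 176 to 334 CPM in footprints and from 14.3 to 31.8 CPM in total mRNA (3.70, SE 0.17). Hist1h2ak had 154 to 241 CPM and 6.15 to 15.2 CPM (a 21.1-fold difference), and Hist1h2ai had 89.4 to 169 CPM and 7.52 to 10.7 CPM (4.0, SE 0.19). At the low end, Hist1h2af had 41.0 to 90.3 CPM in footprints and 27.4 to 44.4 CPM in total mRNA (1.03, SE 0.17, adjusted p = 4.47e-05), and its library types overlapped. Hist1h2ap had 61.8 to 198 CPM and 27.1 to 44.4 CPM, a 3.48-fold difference (adjusted p = 6.48e-06). The third lowest was an H4 gene, Hist1h4i, with 38.0 to 82.4 CPM and 8.72 to 21.1 CPM (2.11, SE 0.24, adjusted p = 1.03e-06).

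In neurons footprints also exceeded total mRNA, but for fewer members and by less. Only 17 members passed the filter, of which 15 were called higher in footprints, Hist3h2a was called lower and Hist1h2bc was not called, while 27.6% of the 10337 genes tested were called higher and 31.8% lower. The other 51 members had too few reads. The median log2 difference of the tested members was 3.08, and 3.53 without the WT replicate 3 culture, where 15 were again called higher and 1 lower. Without the filter 57 members could be fitted, and 39 were called higher and 3 lower (Hist3h2a, Hist2h2be and Hist2h3c2), against 10.7% and 15.3% of all genes. Footprints exceeded total mRNA without overlap for 24 members, against 4.14% of all genes, and no member lay lower without overlap, against 4.37%. The median ratio of mean CPM was 8.82 over the 48 members with reads in both library types and 0.939 over 19266 such genes.

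The neuron footprints were led by H4 genes, and all 8 H4 genes tested were higher. Without the filter 12 of 13 fitted H4 genes were called higher, against 10.7% of all genes. Hist1h4d ranged from 98.8 to 227 CPM in footprints (median 167) and from 7.20 to 39.9 CPM in total mRNA (median 11.3). The log2 difference was 3.42 (SE 0.34, adjusted p = 7.62e-08), and 3.96 without the WT replicate 3 culture, which gave the value of 39.9 CPM. Hist2h4, which carries both end features, had 89.6 to 214 CPM in footprints and 7.97 to 27.5 CPM in total mRNA (3.29, SE 0.32). Hist1h4c had 60.2 to 101 CPM and 3.52 to 18.3 CPM (3.15, SE 0.30). Hist1h4h had 30.1 to 55.6 CPM and 1.39 to 9.67 CPM (3.18, SE 0.29), and Hist1h4f had 10.7 to 31.3 CPM and 0 to 2.98 CPM (3.28, SE 0.38). None of these 5 genes had overlapping library types. Hist4h4, first by reads in MN1 footprints, had 20.8 to 61.4 CPM in neuron footprints and 2.15 to 8.42 CPM in total mRNA (3.04, SE 0.35).

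The 3 H1 and 2 H3 members tested in neurons followed the same direction. Without the filter 5 of 6 fitted H1 genes and 7 of 10 fitted H3 genes were called higher, against 10.7% of all genes. The H3 gene Hist2h3c2 was called lower, as were 15.3% of all genes. Hist1h1c ranged from 64.1 to 123 CPM in footprints (median 95.8) and from 16.8 to 45.6 CPM in total mRNA (median 26.8), a log2 difference of 1.70 (SE 0.16, adjusted p = 4.60e-08). Hist1h1d had 18.1 to 47.5 CPM and 1.39 to 12.2 CPM (3.03, SE 0.38). Hist1h3i had the largest difference of the neuron set, with 10.4 to 24.3 CPM in footprints and 0 to 2.03 CPM in total mRNA (4.20, SE 0.34, adjusted p = 4.73e-09), where it rests on 20 total mRNA reads.

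Among H2A and H2B genes the directions diverged. Hist3h2ba had 48.2 to 106 CPM in footprints and 17.8 to 36.5 CPM in total mRNA, 1.48 on the log2 scale (SE 0.18, adjusted p = 8.19e-07), and per kilobase it was the highest member of the neuron total mRNA, with a mean of 42.2 CPM per kb. Hist1h2bc had 5.75 to 13.8 CPM in footprints and 2.18 to 14.1 CPM in total mRNA, which overlapped, and its log2 difference of 0.32 (SE 0.28, adjusted p = 0.348) was not called. Hist3h2a, named after its values were seen, had only 12 footprint reads over the 8 neuron cultures against 375 total mRNA reads. Its levels were 0 to 6.02 CPM in footprints and 3.33 to 17.2 CPM in total mRNA, which overlapped, and the log2 difference was −3.26 (SE 0.37, adjusted p = 4.23e-07). Its gene model (chr11:58954685-58956830) holds 2146 exonic bases of which 393 are coding, and it includes both the stem-loop printed above and a poly(A) signal further downstream. Hist2h2be, whose annotated end has a poly(A) signal and no stem-loop, had 10 footprint and 81 total mRNA reads in neurons. The H3 gene Hist2h3c2 had 0 and 52.

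The members that both end features mark can be set beside those with the stem-loop alone. In MN1 cells the median log2 difference of footprints to total mRNA was 4.03 over 9 tested members with both features and 4.63 over 34 with the stem-loop alone. In neurons it was 2.37 over 6 and 3.16 over 10. Tested members with a poly(A) signal and no stem-loop found did not lie below both, at 4.21 over 2 in MN1 cells and 2.68 for 1 in neurons. Without the filter the MN1 medians were 3.92 over 11 members with both features, 4.405 over 42 with the stem-loop alone and 3.60 over 5 with the signal alone. The neuron medians were then 2.71 over 11 members with both features, 3.07 over 39 with the stem-loop alone and 1.57 over 4 with the signal alone. Members with the signal alone thus lay lowest in both cell types without the filter, but some of them held almost no reads. In MN1 cells Hist1h2bq had 1 footprint and 0 total mRNA reads, and Hist1h2br had 8 and 1. In neurons Hist1h2bp had 1 and 0, and Hist1h2br had 2 and 1. These medians are descriptions, since the members tested were those with enough reads.

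The comparison of dividing MN1 cells with Ara-C-treated neurons showed the members higher in MN1 cells at both levels, with a few exceptions in total mRNA. In these bulk libraries, fewer expressing cells and less RNA per cell cannot be told apart. In footprints all 47 members tested were called higher in MN1 cells, against 39.5% of the 9518 genes tested (44.5% were called lower). Without the filter 62 members could be fitted, 55 were called higher and only Hist1h4m was called lower, against 23.3% and 26% of all genes. In total mRNA 32 members were tested, of which 28 were called higher and Hist3h2a lower, against 40% and 43.4% of the 11818 genes tested. Hist1h2bc, Hist1h4c and Hist3h2ba were not called. Without the filter 47 of 61 fitted members were higher and 3 lower (Hist3h2a, Hist2h3c2 and Hist1h4m), against 19.2% and 25.4% of all genes.

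**Figure D3:**
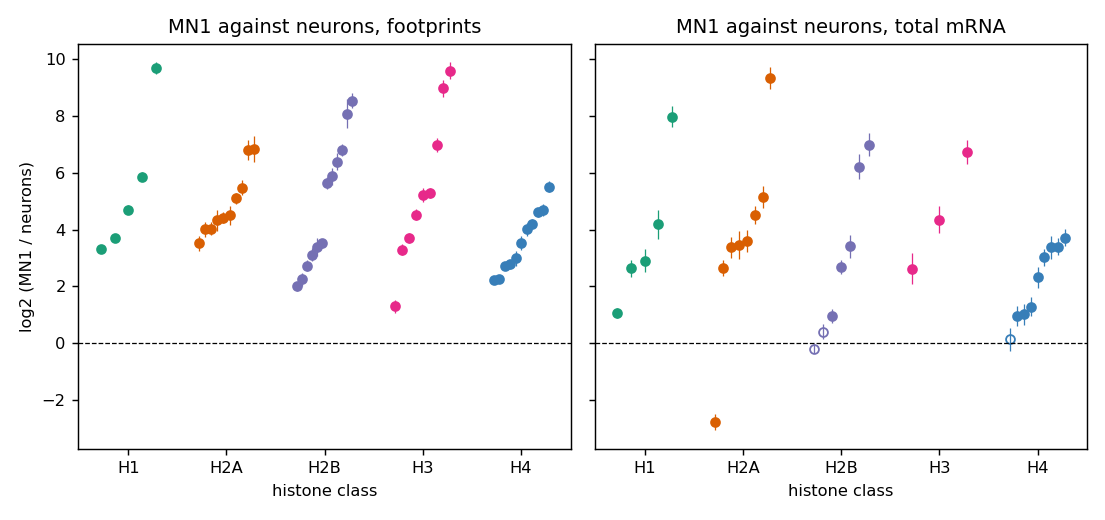
Log2 difference of MN1 cells minus neurons for each tested member, by histone class, in footprints (47 members) and total mRNA (32 members). All footprint points lie above 0, and in total mRNA Hist3h2a and Hist3h2ba lie below it; the point of Hist1h2af in total mRNA depends on the fit, since all its neuron libraries are at 0.

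The largest footprint contrast was that of the linker histone gene Hist1h1b. It had 0 to 2.11 CPM in neuron footprints (11 reads in all) beside its 1207 to 1532 CPM in MN1 cells, a log2 difference of 9.69 (SE 0.20, adjusted p = 1.70e-22). In total mRNA it had 2 reads over all neuron libraries and 467 in MN1 cells. Hist1h1a had 0 to 19.0 CPM in neuron footprints, 5.87 on the log2 scale below MN1 cells (SE 0.17). Hist1h1c was the H1 gene with the smallest contrast, 3.31 in footprints (SE 0.14) and 1.05 in total mRNA (SE 0.18, adjusted p = 1.95e-05). The H1 genes therefore took different orders in the cell types, with Hist1h1b first by footprint reads in MN1 cells and Hist1h1c first in neurons.

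Among core histone genes the largest fitted contrasts, 9.60 for Hist1h3c and 8.55 for Hist1h2bk (named after their values were seen), rest on 1 and 2 neuron footprint reads. Of the named genes, Hist1h3g (0 to 2.11 CPM), Hist1h2bj (0 to 6.95 CPM) and Hist1h2af (0 to 0.837 CPM) were near the floor in neuron footprints. Their log2 differences from MN1 cells were 6.99 (SE 0.24), 6.81 (SE 0.22) and 6.81 (SE 0.36), the last on 3 neuron reads. In total mRNA Hist1h2af had no read in any of the 8 neuron libraries, which makes MN1 cells at least 318-fold higher when the floor of 3 reads over the neuron set is used. The H4 genes Hist1h4d and Hist1h4c had smaller contrasts in footprints, 2.24 (SE 0.14) and 2.27 (SE 0.13), and so did Hist3h2ba, 2.01 (SE 0.15).

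In total mRNA the contrasts of these H4 and H2B genes were smaller, and those of Hist1h4c and Hist3h2ba were not called. Hist1h4c had 6.84 to 18.8 CPM in MN1 cells and 3.52 to 18.3 CPM in neurons, a log2 difference of 0.14 (SE 0.40, adjusted p = 0.755) whose sign turned under other settings. Hist3h2ba had 19.8 to 36.9 and 17.8 to 36.5 CPM (−0.19, SE 0.16, adjusted p = 0.282), and this sign turned when library totals alone set the scale. Hist1h4d (1.02, SE 0.37, adjusted p = 0.0170), Hist1h4h (0.95, SE 0.35, adjusted p = 0.0182) and Hist2h4 (1.28, SE 0.33, adjusted p = 0.00150) were called higher in MN1 cells over all cultures. In the control cultures alone, 2 GFP against 2 WT, none of these 3 was called, nor were Hist1h1c, Hist1h1d and Hist1h1e. The 2 WT libraries lay far apart. WT replicate 3 held 39.9 CPM of Hist1h4d, 9.67 of Hist1h4h and 12.2 of Hist1h1d, and WT replicate 2 held 7.20, 1.39 and 1.39 CPM. For Hist1h1c replicate 2 was the higher, with 39.6 against 16.8 CPM.

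Hist1h4m and Hist3h2a ran against the others and were named after their values were seen. Hist2h3c2, called lower in MN1 total mRNA without the filter, had 7 total mRNA reads in MN1 cells and 52 in neurons. Hist1h4m had 91 reads in neuron footprints, at 6.33 to 18.1 CPM, and 2 reads in MN1 footprints, at 0 to 3.01 CPM. Its log2 difference without the filter was −4.42. None of the 30-base stretches of its coding sequence is unique, nor is any of Hist1h4n, which had 77 reads in MN1 footprints and 11 in neuron footprints. Over exons, 8.04% of these stretches are unique in Hist1h4m and 5.24% in Hist1h4n. Only uniquely mapped reads were counted, and how well they separate such copies was not tested. Hist3h2a had 3.33 to 17.2 CPM in neuron total mRNA and 1.29 to 3.76 CPM in MN1 total mRNA, a log2 difference of −2.79 (SE 0.28, adjusted p = 1.96e-08).

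The footprint to total mRNA difference itself was larger in MN1 cells than in neurons for some members. In the fit of all 28 libraries with the interaction of cell type and library type, 49 members were tested, 15 were called higher in MN1 cells and none lower, while 3.52% of the 11587 genes tested were called higher and 8.22% lower. Without the filter 17 of 63 fitted members were called higher and none lower, against 1.07% and 2.35% of all genes. The 15 were 3 H1, 1 H2A, 4 H2B, 1 H3 and 6 H4 genes. Among named genes, Hist1h2bc had an interaction of 2.33 (SE 0.33, adjusted p = 1.26e-05), Hist1h4f of 2.21 (SE 0.39, adjusted p = 0.000261), Hist1h1c of 2.19 (SE 0.22, adjusted p = 4.31e-08) and Hist3h2ba of 2.13 (SE 0.23, adjusted p = 8.44e-08). Of these 4 genes, Hist1h1c and Hist3h2ba had the most neuron reads. Hist1h4c reached 1.99 (SE 0.40, adjusted p = 0.00103).

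Not all members showed it. Over the 34 members tested and not called, the interaction ranged from −1.85 to 3.56, and for most of them the neuron total mRNA held few reads. Hist1h1b, with 2 such reads, had an interaction of 1.94 (SE 1.73, adjusted p = 0.592). Hist1h3i had 0.58 (SE 0.54, adjusted p = 0.534), with a difference of 4.93 in MN1 cells and 4.20 in neurons. Hist1h4d, with 367 neuron total mRNA reads, had 1.13 (SE 0.40, adjusted p = 0.0600), and 0.59 without the WT replicate 3 culture (adjusted p = 0.137). Leaving that culture out left 13 members called, with Hist1h1e, Hist1h2bb and Hist1h4j lost and Hist1h2ac gained. With the culture as a replicate block 19 were called, the same 15 plus Hist1h2ac, Hist1h2bg, Hist1h4b and Hist1h4d.

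**Figure D4:**
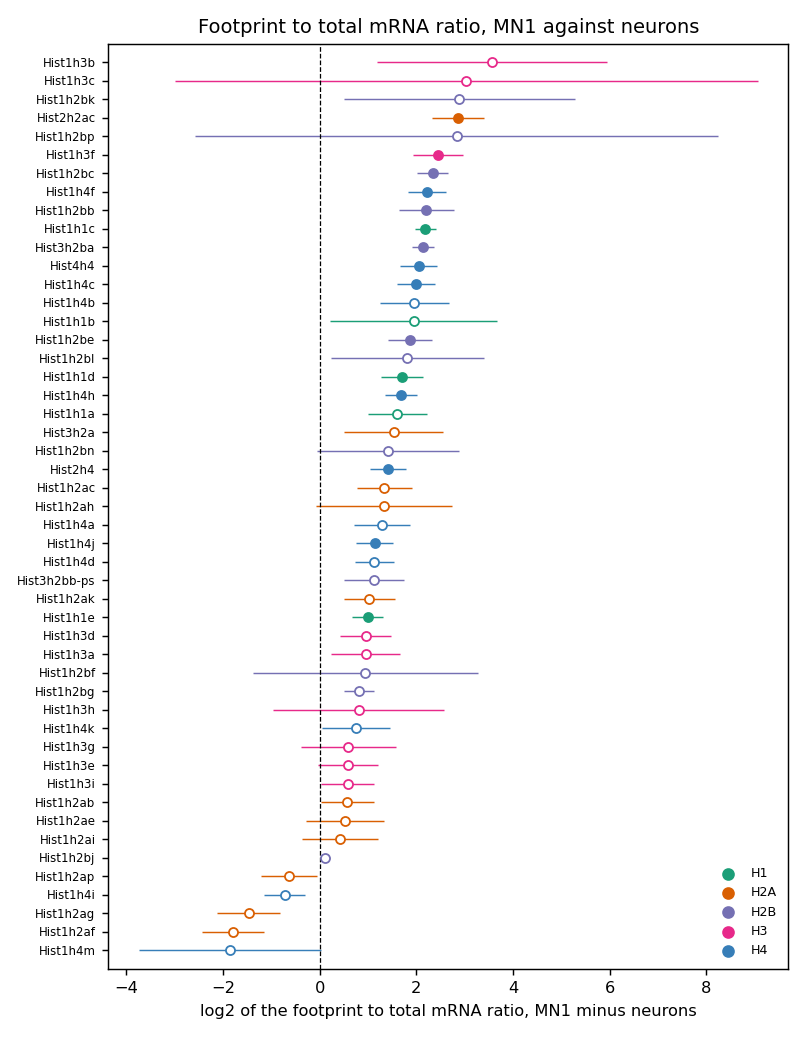
Log2 difference of footprints minus total mRNA in MN1 cells minus that in neurons for 49 tested members, with bars of 1 SE where given and filled points for adjusted p below 0.05. The 15 called members all lie above 0, between 0.99 and 2.85.

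H2afx, a histone variant gene that marks DNA breaks when its protein is phosphorylated, was 1 of only 3 genes outside the members that matched the stem-loop pattern searched, and it also has a poly(A) signal. Its own 16 letters were those of no member, and they are shown for comparison, again with the matched letters in capitals.
H2afx (chr9:44335235-44335260, plus strand): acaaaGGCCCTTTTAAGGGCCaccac

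H2afx had 597 to 1003 CPM in MN1 footprints, above its 158 to 183 CPM in the total mRNA of these cells, 2.45 on the log2 scale (SE 0.14, adjusted p = 2.31e-10). In neurons it had 42.3 to 67.7 CPM and 28.4 to 74.0 CPM, which overlapped (−0.24, SE 0.14, adjusted p = 0.152). The difference between the cell types was 2.55 (SE 0.19, adjusted p = 2.80e-11). Over the other histone genes outside the rule, most of which have polyadenylated mRNAs, footprints and total mRNA were close. Of 13 such genes, H2afx included, 10 were tested in MN1 cells, where 5 were higher in footprints (H2afx, H2afy, H2afz, H3f3a and H3f3b) and Cenpa was lower, against 29.6% and 31.7% of all genes, and the median log2 difference was 0.22. H3f3a, which encodes the replacement histone H3.3, differed by 0.90, the most after H2afx. In neurons 11 were tested and 4 were higher (Cenpa, H2afy2, H3f3a and H3f3b), against 27.6% of all genes, with a median of 0.01.

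Genes that act on histone mRNA ends and genes of S phase were followed as fixed lists. Slbp, which encodes the stem-loop binding protein, had 88.1 to 132 CPM in MN1 footprints and 15 to 31.3 CPM in neuron footprints, a log2 difference of 1.97 (SE 0.15, adjusted p = 3.07e-12). In total mRNA it had 74.8 to 93.0 and 8.33 to 20.3 CPM (2.01, SE 0.17), and its footprint to total difference did not separate the cell types (−0.09, adjusted p = 0.855). Of the 15 tested genes for histone mRNA processing and decay, 9 were higher and 2 lower in MN1 footprints than in neuron footprints, where 39.5% of all genes were called higher and 44.5% lower. Lsm11, a part of the U7 particle that directs the cut, was 1 of the 2 lower genes (−2.03), and Ncbp2, for a subunit of the cap-binding complex, was the other (−0.63). Eri1, which encodes an exonuclease that trims histone mRNA ends, had the largest difference of the list (3.00). Of 27 genes for histone chaperones and S phase, 26 were tested and all 26 were higher in MN1 cells in footprints and in total mRNA, with median log2 differences of 4.67 and 4.75, against 39.5% and 40% of all genes called higher. Within MN1 cells 21 of these 26 were also called higher in footprints than in total mRNA, but with a median log2 difference of 0.68, and E2f1 was lower (−1.65).

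The reads behind single members and whole classes are limited by how alike the copies are, since the counts come from uniquely mapped reads. By class, the median share of 30-base stretches of the coding sequence that occur once in GRCm38 was 82.9% for H1, 20.7% for H4, 12.0% for H2B, 11.2% for H2A and 8.58% for H3 genes. Hist4h4 (98.9%), Hist1h1a (99.5%), Hist1h1b (95.2%) and Hist2h4 (86.1%) were mostly unique. Hist1h4d (41.1%), Hist1h3i (5.80%) and Hist1h2bc (0%) were not. Hist1h2ap had no unique 30-base stretch in any exon and yet held 467 MN1 footprint reads. How well these reads are told from those of its copies was not tested. No read was counted in any library for 5 members (Hist2h2aa1, Hist2h2aa2, Hist2h2bb, Hist2h3b and Hist2h3c1), and 6 others had 1 to 10 reads over all 28 libraries.

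**Figure D5:**
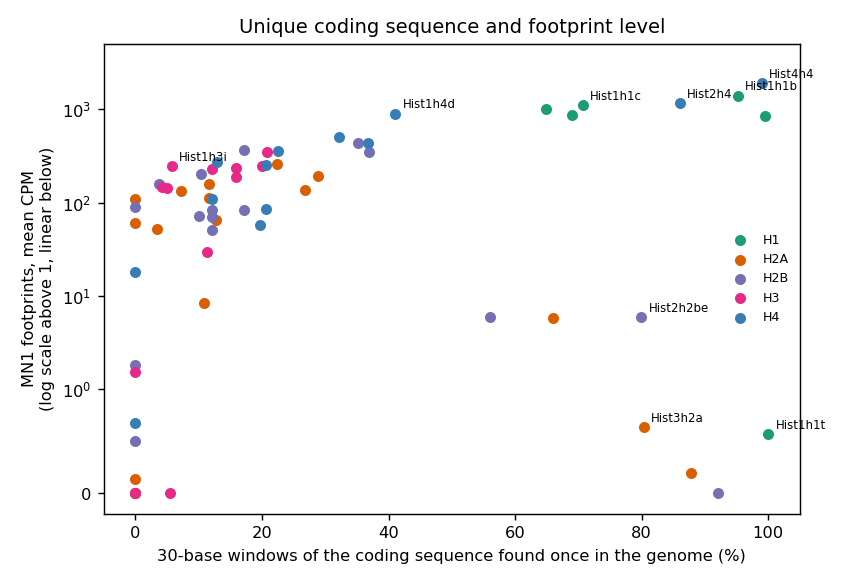
Mean MN1 footprint level against the percentage of 30-base stretches of the coding sequence that occur once in the genome, for 65 members, coloured by class. H1 genes sit at the right, between 64.8% and 100%, and most H2A, H2B and H3 genes at the left.

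Expression of hTDP-43 or hTDP-43 A315T was not followed by a detectable change of any member. In 12 comparisons of transfected or transgenic groups (each pair of groups, in both cell types and both library types), 9 to 49 members were tested and none was called by edgeR's quasi-likelihood test, with or without the replicate block, nor by DESeq2. The groups hold 2 or 3 cultures. With the filter on low counts and without the block, at most 1 gene was called by edgeR in any comparison. That was 0.0115% of those tested for hTDP-43 A315T against GFP in MN1 footprints, and 0.00965% and 0.01% for MN1 total mRNA of the mutant and of hTDP-43 against GFP. Dropping the filter gave 6 to 209 called genes per comparison, with no member among them. With the block 0 to 283 genes were called per comparison, the most in MN1 total mRNA with the mutant against GFP, and DESeq2 called 0 to 11. At an unadjusted p below 0.05, 0 to 2 members per comparison passed without the block and up to 9 with it, and the smallest adjusted p over members with the block was 0.127. In MN1 footprints, log2 differences of hTDP-43 A315T minus GFP over 49 members ranged from −1.18 to 0.72 with a median of −0.10. With 1 culture left out, calls appeared in 3 comparisons. Hist1h2ap was lower with hTDP-43 A315T than with GFP in MN1 footprints without GFP replicate 1 (−1.21, adjusted p = 0.00139), in a fit that called 65 genes. Hist1h2bp was lower with hTDP-43 A315T than with hTDP-43 without hTDP-43 replicate 1 (−1.19, adjusted p = 0.0275), in a fit that called 54 genes. In neuron total mRNA, 6 members were lower with hTDP-43 A315T than in WT without WT replicate 2, which leaves WT replicate 3 as the only WT library. In that fit 748 genes were called higher and 825 lower of 12558 tested, against 0 over all cultures.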

How the data were processed

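The deposited values are raw counts of reads per gene, 1 table per library. Per the labels and the paper's methods, the authors clipped adapters with cutadapt 1.8.1 and kept only clipped reads, removed reads that Bowtie2 placed on non-coding RNAs, aligned the rest to GRCm38 with TopHat2 and counted uniquely mapped reads on exons with featureCounts 1.4.4. No strand option appears in the file headers, so reads of overlapping antisense genes cannot be told apart. Uniquely mapped reads miss the shared parts of near-identical histone genes.

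Groups and replicate numbers came from the labels, and all 28 libraries were used. Of 45513 genes, 44585 had a GENCODE M21 symbol. Of the 70 genes that the symbol rule matches there, Hist1h2bm and Hist1h2bh were not analysed here. Tests used edgeR 4.0.16 in R 4.3.3 on the counts (TMM scaling, minimum count 10, minimum total count 15, quasi-likelihood test, Benjamini-Hochberg adjusted p below 0.05 over all genes tested), with the condition as a covariate for footprints against total mRNA. The group comparisons of TDP-43 used only the 2 groups compared. The authors' DESeq was not used, and DESeq2 1.42.0 was an alternative beside RLE size factors, library totals, no filter, protein-coding genes only, control cultures only, a replicate block and leaving out each culture. CPM are reads per 1000000 assigned reads, and SE is the absolute log2 difference divided by the square root of F. Named genes were the 3 highest per kilobase of each class in MN1 footprints, the 3 with the largest and the 3 with the smallest MN1 difference, and the 5 highest per kilobase in each neuron library type. Others were named after their values were seen. The members and gene lists were chosen with earlier results of these data known. Fits were tested on simulated data.

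Libraries of the same replicate number carry the same date in the labels within a cell type, apart from the year of 1 GFP footprint library, so the numbers were taken to pair cultures. Deviations from group means correlated across genes between same-numbered libraries with a mean r of 0.336 (MN1) and 0.120 (neurons) for footprints and of 0.442 (MN1) and 0.171 (neurons) for total mRNA. Footprint and total mRNA libraries of 1 culture form the block of the fits across library types.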

Additional observations from a re-analysis of the deposited data

Results flagged for a closer look

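For 15 members the log2 difference of footprints minus total mRNA in MN1 cells exceeded that in neurons by the test of the interaction itself (edgeR's quasi-likelihood test, adjusted p below 0.05). The size of this gap was 2.85 for Hist2h2ac, 2.44 for Hist1h3f, 2.33 for Hist1h2bc, 2.21 for Hist1h4f, 2.20 for Hist1h2bb and 2.19 for Hist1h1c. It was 2.13 for Hist3h2ba, 2.04 for Hist4h4, 1.99 for Hist1h4c, 1.87 for Hist1h2be and 1.71 for Hist1h1d. The smallest gaps were 1.68 for Hist1h4h, 1.41 for Hist2h4, 1.14 for Hist1h4j and 0.99 for Hist1h1e.

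The gaps rest on unequal numbers of reads. Hist2h2ac had 21 footprint and 18 total mRNA reads over all neuron cultures, and Hist1h3f had 57 and 25. Hist1h1c had 758 and 726 reads there, and Hist3h2ba had 595 and 675. In Hist2h2ac the MN1 footprints held 97.6 to 184 CPM and the MN1 total mRNA 5.02 to 7.56 CPM, and the neuron libraries lay at 0 to 5.14 CPM and 0 to 1.28 CPM. Without the neuron culture of WT replicate 3, Hist1h1e (adjusted p = 0.0950), Hist1h2bb (adjusted p = 0.0678) and Hist1h4j (adjusted p = 0.0938) were no longer called. Hist1h4j also lost its call under most other omissions, and its adjusted p over all libraries was 0.0497. Hist1h1e (adjusted p = 0.0380 over all libraries) lost its call without any one of the 6 MN1 cultures. The drug treatment before lysis differed between the cell types, and its part in these gaps was not tested. No group held the 4 libraries that a search for single outlying values needs.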

How the results depend on the processing

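Counts of called members stayed within 1.5 times the reported ones under RLE size factors and DESeq2 in all comparisons, and under library totals alone and protein-coding genes only in those of cell or library types. Dropping the filter raised the calls from 16 to 42 for neuron footprints against total mRNA and from 29 to 50 for MN1 against neuron total mRNA, since more members were then tested. Leaving out 1 culture, with both of its libraries, gave 47 to 48 calls for MN1 footprints against total mRNA, 12 to 20 for neurons, 47 for MN1 against neuron footprints, 29 to 34 in total mRNA and 13 to 18 for the interaction. In 3 comparisons of the TDP-43 groups the calls ranged from 0 to 1, 0 to 1 and 0 to 6. The 6 were Hist1h1d, Hist1h1e, Hist1h3e, Hist1h4c, Hist1h4d and Hist2h4 for the mutant against WT in neuron total mRNA, where 748 genes were called higher and 825 lower of 12558 and the lone WT library is assumed to vary like the other group. Hist1h4c in MN1 against neuron total mRNA turned from 0.14 to −0.028 with DESeq2 and −0.84 in control cultures only, and ranged from −0.051 to 0.50 with 1 culture left out. Hist3h2ba turned to 0.22 there with library totals alone. In the interaction, without 1 culture, Hist1h2ap ranged from −1.21 to 0.24 and Hist1h2bj from −0.28 to 0.45. The cause was not tested.

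The scale moved the interaction of all genes: 408 genes were higher and 953 lower (median −0.16), 623 and 339 with RLE size factors (median 0.03), 733 and 427 with DESeq2, and 291 and 1294 with library totals alone, with 17, 20 and 14 members higher and none lower. With the replicate block 19 members were called in place of 15, and no member's call changed in the other comparisons fitted with it (footprints against total mRNA in each cell type, and the TDP-43 groups), where it raised calls over all genes of the TDP-43 groups to at most 283. Neuron footprint depth limits what can be seen of single members.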
